A study of Mus musculus with 6 samples.

Results

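The genes described here carry glucose into the cell, break it down to pyruvate and lactate, or gate the entry of pyruvate into mitochondria. The set was named gene by gene, 34 genes in all, and every probe set that the platform annotation gives to 1 of these symbols alone was taken. The set was chosen by function, but with the knockdown against control differences of these same 6 arrays in view (that of Eno3 above all). Those differences are therefore given as a description, and nothing is read from the test results reported beside them. Of the 34 genes, 31 had a probe set, among 18194 genes on the array with a probe set of their own symbol. Eno1, Gpi1 and Pfkfb1 were not analysed here, because the annotation gives them no probe set of their own, and the enolase comparison therefore rests on Eno2 and Eno3. The genes had 67 probe sets, of which 55 were bright enough to test, 9 were too dim and 3 were array control probe sets of Gapdh. The tested probe sets belonged to 28 genes. All probe sets of Pgam2 and Pdk4 were too dim, and Gapdh had control probe sets only.

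The cells were AtT-20, a line from a mouse pituitary tumour of corticotroph origin. In the siDNMT1 group they received 20 nM siRNA against Dnmt1, the maintenance DNA methyltransferase, several times within 8 days. In the siNT group they received a non-targeting siRNA at the same dose and over the same time. Total RNA was hybridised to 1 Affymetrix array per sample. Each of 3 independent repeats gave 1 siDNMT1 array and 1 siNT array, and the repeat number pairs them. The design asks which transcripts change when Dnmt1 is reduced. The cells are 1 tumour line treated in bulk, so a higher level in each cell and a larger share of cells with that transcript cannot be told apart.

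Glycolysis splits glucose into pyruvate and yields ATP without oxygen. Its steps are mostly carried out by small families of isoforms that different tissues use in different proportions. Lactate dehydrogenase turns pyruvate into lactate, which leaves the cell through monocarboxylate transporters, while the pyruvate dehydrogenase complex turns it into acetyl-CoA for the tricarboxylic acid cycle and is switched off by its kinases. Many of these genes are direct targets of the hypoxia-inducible factors, which bind a short core element, and their transcripts then rise together when oxygen is low. Enolase makes phosphoenolpyruvate; Eno1 encodes the ubiquitous form, Eno2 the form of neurons and neuroendocrine cells, and Eno3 the form of striated muscle.

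Deposited array medians ranged from 19.8 to 36.3, the highest in both arrays of repeat 2, and each array was scaled to a common median before any comparison. Dnmt1 signal in the knockdown was 39.6%, 20.2% and 48.6% of the paired control in repeats 1, 2 and 3. By mean signal in the siNT arrays, 9 of 10 corticotroph markers were above the brightness filter, up to 9229 for Pomc, with Avpr1b below it. Also above it were 5 of 8 markers of other pituitary lineages (up to 153.5, Gata2), 4 of 9 of fibroblasts (up to 66.5, Col1a2), 4 of 6 of immune cells (up to 296, Lyz2) and 2 of 5 of endothelium (up to 35.5, Kdr), while Ptprc, Itgam, Pecam1, Tek, Vwf and Col3a1 were below it. Signals of the brightest probe sets were compressed. In repeat 2 the deposited signal was higher than in the other repeats by 0.866 (median, log2) for probe sets between 200 and 500, and by 0.323 for those above 4000. Among the 28 tested genes 7 had a mean deposited signal above 2000 (Aldoa, Tpi1, Pgk1, Pgam1, Pkm, Ldha and Pdhb). The untested control probe sets of Gapdh were also above it, with deposited signals of 5710 to 9017. Values of such genes in repeat 2 are therefore less certain than those in repeats 1 and 3.

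The sequences before the starts of Eno3 and Eno2 are shown because Eno3 had the largest knockdown difference of the set and Eno2 is the isoform it is compared with. The 250 bases before the start are given 5′ to 3′ on the gene's strand, from RefSeq (GRCm38.p6), with every CG dinucleotide, the sequence that Dnmt1 methylates, in capitals. The Eno3 window, chr11:70656926-70657175 on the plus strand, holds 3 CG. The Eno2 window, chr6:124769674-124769923 on the minus strand, holds 9. Their GC contents are close, 57.2% and 54.4%. The median number of CG over all 27025 genes with a window is 6. DNA methylation itself was not measured.
Eno3: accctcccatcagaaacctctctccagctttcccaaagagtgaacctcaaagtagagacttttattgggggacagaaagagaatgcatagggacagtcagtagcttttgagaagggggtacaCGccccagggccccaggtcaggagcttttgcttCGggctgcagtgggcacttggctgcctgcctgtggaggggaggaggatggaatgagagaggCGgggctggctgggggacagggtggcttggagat
Eno2: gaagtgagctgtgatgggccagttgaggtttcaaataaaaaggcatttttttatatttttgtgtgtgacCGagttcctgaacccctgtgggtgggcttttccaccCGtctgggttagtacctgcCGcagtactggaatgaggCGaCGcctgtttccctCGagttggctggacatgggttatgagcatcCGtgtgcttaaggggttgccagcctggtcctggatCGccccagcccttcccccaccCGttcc

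Eno3 signal was low in every knockdown array. The scaled signal was 175, 209 and 192 in siDNMT1 repeats 1, 2 and 3 and 413, 600 and 402 in the corresponding siNT arrays. The groups did not overlap, and the lowest control value was that of repeat 3. The knockdown arrays held 41.7% ± 6.54 (SD, n = 3) of the paired control signal. On the log2(scaled signal + 5.29) scale, which is used for all differences below, Eno3 differed by -1.21, -1.50 and -1.05 in repeats 1, 2 and 3, a mean of -1.25 (SE 0.15 in the blocked fit, in which arrays are compared within repeats). Among the 13477 genes tested this was the 24th lowest difference. Eno3 has a single probe set on the array, so no other probe set bears on this value.

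Eno2, the neuroendocrine form, did not share this pattern. Its scaled signal was 530, 484 and 884 in the knockdown and 502, 777 and 847 in the control. The groups overlapped, and both arrays of repeat 3 were the highest. The differences were 0.08, -0.68 and 0.06, with a mean of -0.18 (SE 0.15). The Eno2 difference exceeded the Eno3 difference by 1.29, 0.82 and 1.11 in repeats 1, 2 and 3, a mean of 1.07 ± 0.23 (SD, n = 3). The gap restates the Eno3 difference that was known when the set was chosen, and does not show that either isoform stayed constant.

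The genes next to Eno3 on chromosome 11 showed smaller differences. Slc25a11, Rnf167 and Pfn1 on 1 side differed by -0.19, -0.03 and -0.03, and Spag7, Camta2 and Inca1 on the other by -0.12, -0.17 and -0.44. The 6 neighbours of Eno2 on chromosome 6, Tpi1 among them, lay between -0.31 for Spsb2 and 0.19 for Ptpn6. Because Eno3 is the striated muscle form, 20 skeletal muscle genes were read beside it, and 12 of them passed the filter. Their median difference was -0.11 (-0.06 over all genes) with 9 lower (61% of all genes) and 3 higher. The largest in size were -1.62 for Ankrd23, a muscle ankyrin repeat gene, -1.02 for Pygm, the muscle glycogen phosphorylase, and -0.94 for Tnnt3, a fast troponin. Ankrd23 signals were dim in the knockdown, 5.89 to 17.4. Tnnt3 differed by -2.04, -0.85 and 0.09 by repeat, with a signal of 2.93 in siDNMT1 repeat 1. Of the 3 higher genes, Mylpf differed most, by 0.82, 0.17 and 0.84 in repeats 1, 2 and 3. Summed signal over the 12 ranged from 349 to 417 in the knockdown and from 439 to 516 in the control. Most of that gap came from Ankrd23 and Pygm, with means of 11.1 and 46.7 in the knockdown and 43.7 and 103 in the control. None of the 12 passed in limma with or without the block. Pgam2, the muscle form of phosphoglycerate mutase, had signals of 9.46 to 15.2 over the 6 arrays, below the filter of 16.8. Pfkm, the muscle phosphofructokinase, differed by -0.11 (SE 0.14).

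**Figure D1:**
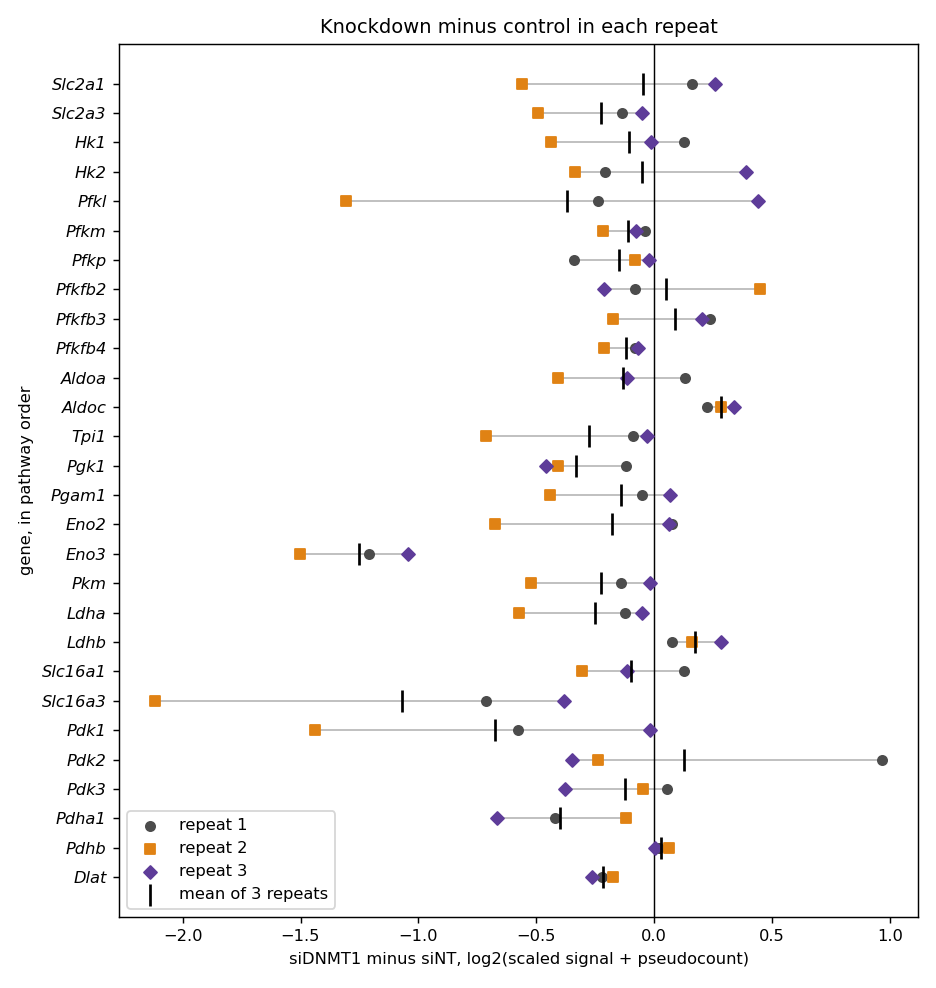
Difference between siDNMT1 and siNT for the 28 tested genes in pathway order, on the log2(scaled signal + pseudocount) scale. Each symbol is 1 repeat, the grey line spans the 3 repeats and the black tick is their mean; Eno3 lies between -1.50 and -1.05, while the orange squares of repeat 2 lie farthest to the left for most other genes.

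Across the tested genes, most differences were small and most of their size came from 1 repeat. The mean difference was below 0 for 22 of the 28 genes, against 8220 of 13477 genes tested (61%). It was below 0 in all 3 repeats for 13 genes (20.6% of all genes) and above 0 in all 3 for 3 genes, Aldoc, Ldhb and Pdhb (9.83% of all genes). On the brightest probe sets, groups did not overlap, with the knockdown lower, for Eno3 alone (6.31% of all genes). They did so with the knockdown higher for none of the 28 (2.75% of all genes). Dimmer probe sets of Slc2a3, Pfkl and Pfkp, at -0.37, -0.31 and -0.76, also had the knockdown lower without overlap. The median difference was -0.14 over the 28 genes and -0.06 over all genes. By repeat the median was -0.08, -0.37 and -0.04 in repeats 1, 2 and 3, against 0.02, -0.13 and -0.07 over all genes. Thus 24 of the 28 genes were lower in repeat 2, 17 in repeat 1 and 19 in repeat 3. Repeat 2 was also the repeat with the least Dnmt1 left, 20.2%, and with the compressed bright signals, and the part of either in these differences was not tested. Leaving out single arrays moved the median from -0.33 without siDNMT1 repeat 3 to 0.012 without siNT repeat 3; it was -0.32 without siNT repeat 1, -0.02 without siDNMT1 repeat 2 and -0.06 without siDNMT1 repeat 1.

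In the limma fit without the repeat number, 0 of 55 probe sets passed an adjusted p of 0.05, and 0 of 27022 did over the whole array (0%); 2 of the 55 had an unadjusted p under 0.05. In the blocked fit, 1 of 55 passed, that of Eno3, against 23 of 27022 (0.0851%), of which 15 were lower (0.0555%); 10 of the 55 had an unadjusted p under 0.05. Because the set was chosen with this comparison in view, nothing is read from these counts. Without repeat 3 the blocked fit called 5 of the 55, those of Eno3, Pfkfb2, Pdk1, Pfkl and Slc16a3, and 266 probe sets in all. With the dim probe sets kept or with no trend of the variance, the blocked fit called 0 of the genes' probe sets.

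At glucose entry, the transporters Slc2a1 and Slc2a3 gave no common direction. Slc2a3, the high-affinity transporter of neurons, had scaled signals of 90.8, 124 and 86.0 in the knockdown and 100.3, 176 and 89.3 in the control. Each knockdown array was below its paired control, by -0.14, -0.49 and -0.05, but the groups overlapped on this brightest probe set. Slc2a1, the widely expressed transporter, differed by -0.05 (SE 0.16). The hexokinases, which trap glucose by phosphorylation, differed by -0.11 (SE 0.13) for Hk1 and -0.05 (SE 0.14) for Hk2.

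Phosphofructokinase commits the sugar to glycolysis. Its liver-type subunit gene Pfkl had scaled signals of 132, 151 and 851 in the knockdown and 157, 382 and 626 in the control. Repeat 3 was highest in both groups, and the knockdown array exceeded its control there, so that the differences were -0.24, -1.31 and 0.44 with a mean of -0.37 (SE 0.25). The other Pfkl probe sets differed by -0.16 and -0.31. Pfkp, the platelet-type subunit, differed by -0.15 (SE 0.12) on its brightest probe set, and by 0.10 and -0.76 on the others, the last of which is dim. The PFKFB enzymes, which make and remove the metabolite that activates phosphofructokinase, differed by 0.05, 0.09 and -0.12 for Pfkfb2, Pfkfb3 and Pfkfb4. A dimmer Pfkfb2 probe set gave 3.05, 0.89 and -0.73 in repeats 1, 2 and 3 and rests on a control signal of 1.75 in repeat 1.

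The aldolases differed from each other in sign. Aldoc, the brain form, had scaled signals of 833, 879 and 1257 in the knockdown and 712, 722 and 993 in the control. Each knockdown array was above its paired control, by 0.23, 0.28 and 0.34, with a mean of 0.28 (SE 0.11), though the groups overlapped. Aldoa, the ubiquitous form, differed by 0.13, -0.41 and -0.12, a mean of -0.13 (SE 0.10), and its 4 other probe sets by -0.07 to -0.27. The Aldoa difference was below the Aldoc difference in all 3 repeats, and the gap between them averaged -0.41 ± 0.30 (SD, n = 3).

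Among the enzymes of the lower pathway, Tpi1, which interconverts the triose phosphates, had scaled signals of 2982, 2069 and 5269 in the knockdown and 3175, 3394 and 5376 in the control. The arrays of repeat 3 stood above all others, and the differences were -0.09, -0.71 and -0.03. The other Tpi1 probe sets were not lower in every repeat, at -0.04, -0.51 and 0.07 on 1 and 0.10, -0.65 and 0.29 on the other. Pgk1, which makes the first ATP of the pathway, had 3630, 2807 and 5320 in the knockdown and 3941, 3731 and 7322 in the control. It was lower in each knockdown array than in its control, by -0.12, -0.41 and -0.46 with a mean of -0.33 (SE 0.09), and its other probe sets differed by -0.23 and -0.16. Pkm, pyruvate kinase, had 2993, 2178 and 4967 in the knockdown and 3296, 3134 and 5024 in the control. Its differences were -0.14, -0.52 and -0.02. Pgam1, phosphoglycerate mutase, differed by -0.14 (SE 0.11). The 3 control probe sets of Gapdh, which were not tested, differed by -0.14 to -0.16.

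At the branch from pyruvate to lactate, Ldha, the subunit that favours lactate production, had scaled signals of 4766, 3190 and 8407 in the knockdown and 5200, 4745 and 8722 in the control. Repeat 3 was again the highest in both groups, and the differences were -0.13, -0.57 and -0.05. Ldhb, the heart-type subunit, differed by 0.08, 0.16 and 0.28, a mean of 0.17 (SE 0.16). The Ldha difference was below the Ldhb difference in all 3 repeats, with a mean gap of -0.42 ± 0.28 (SD, n = 3). This ordering rests on the brightest Ldhb probe set, since 2 dim ones differed by -0.81 and -0.25.

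Slc16a3, which encodes MCT4, the lactate exporter of highly glycolytic cells, had the second largest difference among these genes. Its scaled signals were 57.9, 57.6 and 388 in the knockdown and 98.4, 267 and 507 in the control. Each knockdown array was below its control, by -0.71, -2.12 and -0.38 with a mean of -1.07 (SE 0.27), but both repeat 3 arrays exceeded every other array and the groups overlapped. Without the siDNMT1 array of repeat 3 the mean difference was -1.95, and without the siNT array of repeat 3 it was -0.53. Slc16a1, which encodes the widely expressed transporter MCT1, differed by 0.13, -0.30 and -0.12.

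Among the pyruvate dehydrogenase kinases, Pdk1 had, like Slc16a3, its highest signals in repeat 3. Its scaled signals were 30.2, 41.2 and 217 in the knockdown and 47.6, 121 and 219 in the control. The repeat 3 arrays were the highest and nearly equal, and the differences were -0.58, -1.44 and -0.02 with a mean of -0.68 (SE 0.25). Without single arrays the mean ranged from -1.49 to -0.17. A Pdk1 probe set of similar signal gave -0.04, -0.78 and -0.09, a mean of -0.31, and a dim one gave a mean of -0.33. Pdk2 and Pdk3 differed by 0.13 (SE 0.29) and -0.12 (SE 0.16). Pdk4 had signals of 3.72 to 16.03, below the filter.

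Within the pyruvate dehydrogenase complex, Pdha1, the catalytic alpha subunit, had scaled signals of 217, 315 and 233 in the knockdown and 291, 342 and 372 in the control. Each knockdown array was below its paired control, by -0.42, -0.12 and -0.67, a mean of -0.40 (SE 0.15), and its other probe set differed by -0.31. The groups overlapped through the knockdown array of repeat 2. Dlat, the acetyltransferase core, was lower in each repeat by -0.22, -0.17 and -0.26 on its brightest probe set. Its other probe sets had mean differences of -0.22 and, on a dim one, 0.08. Pdhb, the beta subunit, differed by 0.02, 0.06 and 0.01 on its brightest probe set and by -0.28, -0.27 and -0.57 on a dim one. Over all steps, 18 pairs of isoforms or subunits could be compared, each gene by its brightest probe set. In 7 of them the gap between the differences had 1 sign in all 3 repeats: Pfkfb3 and Pfkfb4, Aldoa and Aldoc, Eno2 and Eno3, Ldha and Ldhb, Slc16a1 and Slc16a3, Pdha1 and Pdhb, and Pdhb and Dlat. Some genes stand in more than 1 pair, and no such share was taken over other gene pairs. Nothing is read from this count.

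**Figure D2:**
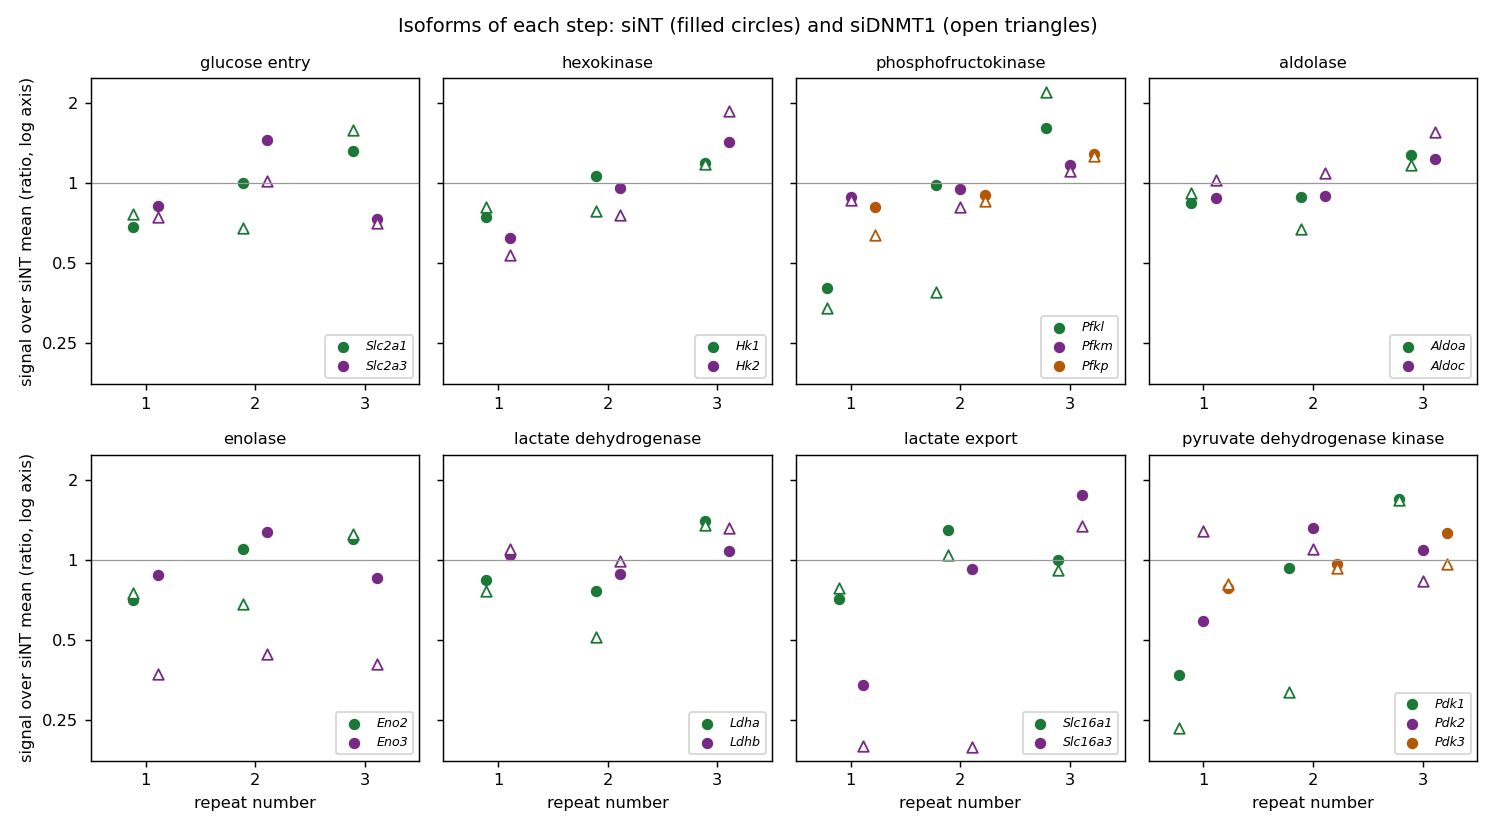
Isoforms of 8 steps of the pathway. Each symbol is 1 array, with the scaled signal divided by the mean of that gene's 3 siNT arrays, on a log axis against the repeat number, filled circles for siNT and open triangles for siDNMT1; Eno3 triangles lie below 0.5 in every repeat, and Pfkl, Slc16a3 and Pdk1 are highest in repeat 3 in both groups.

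Most glycolytic transcripts were highest in repeat 3, in knockdown and control alike. The repeats were compared in the limma fit that holds both the siRNA and the repeat number. This comparison was chosen after the values were seen, and it is orthogonal to the knockdown difference. The adjusted p (Benjamini-Hochberg over 27022 probe sets, limma F test over the 3 repeats) was under 0.05 for 12 of the 28 genes on their brightest probe set, against 251 of 13477 genes (1.86%). In all 12 repeat 3 was the highest, which holds for 70 of the 13477 genes (0.519%), so these 12 genes make up 17.1% of that group. At the level of probe sets, 21 of 55 passed, against 464 of 27022 (1.72%). The call was lost under 2 other settings of the fit. With the dim probe sets kept in the fit, 0 of the then 30 genes passed, with a lowest adjusted p of 0.0876 and 19 at an unadjusted p under 0.05. With no trend of the variance, 0 of 28 passed in limma, with a lowest adjusted p of 0.343 and 12 at an unadjusted p under 0.05, against 10.8% of all genes.

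The arrays themselves showed the same order. Both arrays of repeat 3 exceeded the 4 other arrays for 17 of the 28 genes (60.7%), against 1230 of 13477 (9.13%). Repeat 3 had the highest mean for 19 of the 28 (33.2% of all genes) and exceeded repeat 1 in both groups for 23 of the 28 (36.9% of all genes). The median difference between repeats 3 and 1 was 0.51 over the 28 genes, 0.48 in the knockdown and 0.64 in the control, against 0.06 over all genes. It was 0.64 over the 22 genes from glucose entry to lactate export, of which 11 passed, and 0.24 over the 6 genes of pyruvate dehydrogenase and its kinases, of which Pdk1 alone passed. The repeats are independent rounds of treatment, and what else differed between them is not given in the labels.

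**Figure D3:**
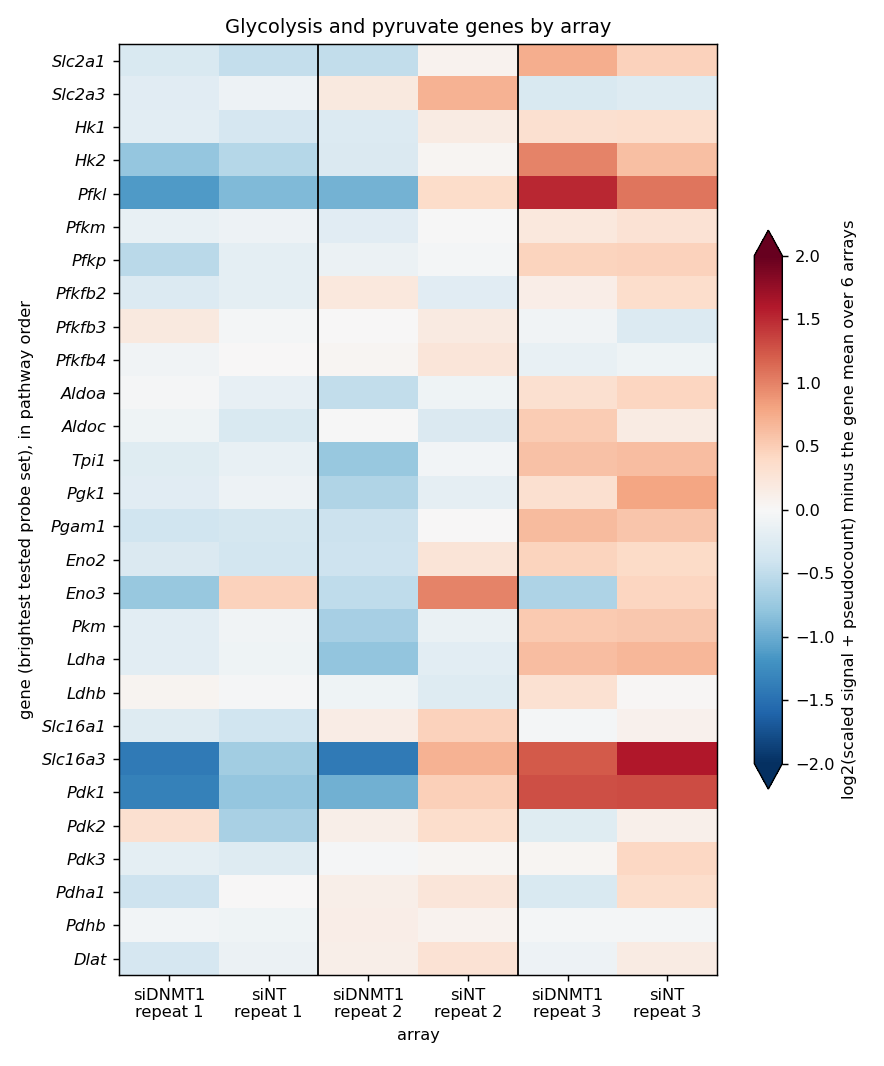
Level of the 28 tested genes in each array, as log2(scaled signal + pseudocount) minus the gene's mean over the 6 arrays, with the arrays ordered by repeat. The repeat 3 columns are red for most rows in both groups, up to 1.61 for Slc16a3, whereas Eno3 is blue in the 3 siDNMT1 arrays and red in the 3 siNT arrays.

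On the brightest probe set of each gene, the largest differences between repeats were those of a transporter, a kinase and the rate-setting enzyme. Slc16a3 signal in repeat 3 was 6.71-fold that of repeat 1 in the knockdown and 5.16-fold in the control, and the log2 difference was 2.47 (SE 0.33, limma adjusted p = 0.00958). Pdk1 was 7.18-fold and 4.61-fold higher (log2 difference 2.37, SE 0.30, limma adjusted p = 0.00912). Other tested Pdk1 probe sets differed by 1.53 and, on a dim one, 1.72 (limma adjusted p = 0.0226 and 0.274). Pfkl was 6.45-fold and 3.998-fold higher (2.30, SE 0.31, limma adjusted p = 0.0100). Its size rests on that probe set, since the other Pfkl probe sets differed by 1.03 and 0.05 (limma adjusted p = 0.0575 and 0.890). Slc16a3, Pdk1 and Pfkl were also among the 5 genes with the largest knockdown differences of the set.

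The other genes that passed came from many steps between glucose and lactate, but not from all. Neither Eno2 nor Eno3 passed, and the control probe sets of Gapdh, which were not tested, were nearly level between repeats 1 and 3. The brightest of these had scaled signals of 8917 and 8937 in the knockdown and 9569 and 9515 in the control. The Gapdh signals lie in the brightest range, where signals were compressed. Hk2, the inducible hexokinase, was 3.45-fold higher in repeat 3 in the knockdown and 2.28-fold in the control (1.48, SE 0.18, limma adjusted p = 0.00699). Its scaled signals were 436, 612 and 1508 in the knockdown and 506, 773 and 1151 in the control. Slc2a1 differed by 0.99 (limma adjusted p = 0.0422) and Pfkp by 0.82 (limma adjusted p = 0.0387). The remaining genes are among the bright ones named above. Aldoa differed by 0.47, Pkm by 0.67, Pgk1 by 0.72, Ldha by 0.78, Tpi1 by 0.79 and Pgam1 by 0.98 between repeats 3 and 1. Their limma adjusted p ranged from 0.00435 for Ldha to 0.0467 for Aldoa. The F test behind these p also takes in repeat 2. Repeat 2 minus repeat 1 was -0.36 for Ldha, -0.27 for Pkm, -0.22 for Pgk1 and Tpi1, -0.19 for Aldoa and 0.16 for Pgam1. The part of the compressed bright signals of repeat 2 in these values was not tested.

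Within several steps, 1 isoform passed this test and another did not. Hk2, Pfkl, Ldha, Slc16a3 and Pdk1 passed, and their partners Hk1, Pfkm, Ldhb, Slc16a1, Pdk2 and Pdk3 did not, with differences between repeats 3 and 1 of 0.61, 0.37, 0.15, 0.35, 0.11 and 0.45. Pfkp also passed, at 0.82. Passing did not always follow size, since Aldoa passed at 0.47 while Aldoc at 0.53 (limma adjusted p = 0.0885) and Hk1 did not. The Slc16a1 difference minus the Slc16a3 difference was -2.41 over the knockdown arrays and -1.83 over the control arrays. Among the enolases, Eno2 differed by 0.74 (limma adjusted p = 0.120) and Eno3 by 0.05 (limma adjusted p = 0.368). Eno3 was thus the gene with the largest knockdown difference of the set and was nearly level between repeats 3 and 1, while 12 of the other 27 genes differed between repeats. Gaps between isoforms were not tested. Pdhb, Ldhb and Pfkfb4 differed between repeats 3 and 1 by 0.03, 0.15 and -0.09.

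**Figure D4:**
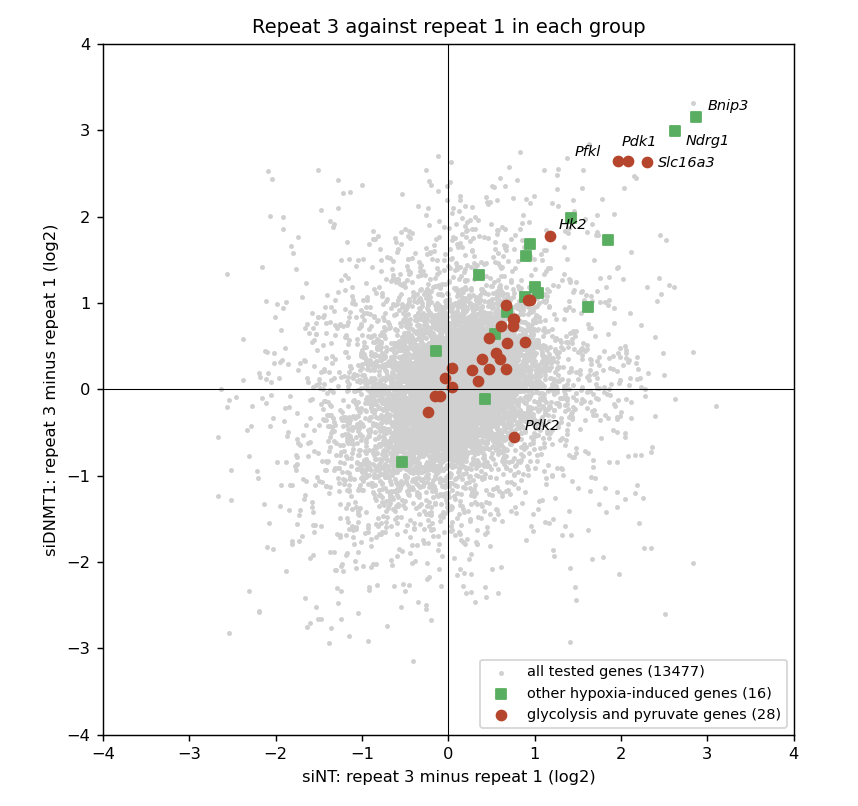
Repeat 3 minus repeat 1 in the siNT arrays (horizontal axis) and in the siDNMT1 arrays (vertical axis), in log2 units, for 13477 tested genes (grey), the 28 glycolysis and pyruvate genes (red circles) and 16 other hypoxia-induced genes (green squares). Most red and green points lie above and to the right of 0, with Slc16a3, Pdk1, Pfkl, Bnip3 and Ndrg1 farthest out.

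Most of a list of other genes known to be induced by low oxygen were high in the same arrays. Of 20 such genes outside the glycolytic set, 16 were tested, 7 passed the limma F test over repeats (1.86% of all genes), and in all 7 repeat 3 was the highest (0.519% of all genes). With the dim probe sets kept, 2 of then 18 passed in limma, Bnip3 and Ndrg1, among 8 genes in all, and with no trend of the variance 0 of 16, among 0 in all, with 13 and 8 at an unadjusted p under 0.05. They were Bnip3, a mitophagy receptor, Ndrg1, a stress-induced gene, Higd1a, an inner-membrane protein of mitochondria, Mxi1, a Myc antagonist, P4ha1, a collagen prolyl hydroxylase, Gys1, glycogen synthase, and Ppp1r3c, a glycogen-targeting phosphatase subunit. Bnip3 signal was 401, 510 and 3602 in the knockdown and 468, 1014 and 3463 in the control, a difference of 3.01 between repeats 3 and 1 (limma adjusted p = 0.00031). Ndrg1 differed by 2.81 (limma adjusted p = 0.00031). Repeat 3 exceeded repeat 1 in both groups for 13 of the 16 (36.9% of all genes). Car9 and Kdm3a differed by only 0.15 and 0.16, and Tfrc by -0.69. The median over the 16 was 1.09, both repeat 3 arrays exceeded the 4 others for 10 of them (9.13% of all genes), and their summed signal ranged from 5337 to 14330 in the knockdown and from 5501 to 12750 in the control. By repeat their median knockdown difference was 0.01, -0.26 and 0.17. Oxygen was not measured, and the part of these genes in the glycolytic values was not tested.

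In neighbouring pathways single genes passed this test, to be read against 1.86% of all genes, or 0.519% with repeat 3 highest. The median difference between repeats 3 and 1 was 0.10 over 22 other genes of glycolysis and glucose entry, of which Pgm1, phosphoglucomutase, alone passed with repeat 3 highest. It was 0.03 over 7 gluconeogenic genes, with 0 passing in limma, and 0.02 over 19 genes of the tricarboxylic acid cycle, with 0 passing. Of 11 further genes of lactate and pyruvate transport and pyruvate dehydrogenase, Bsg alone passed (0.92, limma adjusted p = 0.00958); it encodes basigin, the chaperone of the MCT1 and MCT4 transporters. Of 11 pentose phosphate genes only Pgd, 6-phosphogluconate dehydrogenase, passed, and it was lower in repeat 3 (-0.66, limma adjusted p = 0.0158). Among 21 regulators, Egln1, an oxygen-sensing prolyl hydroxylase that is itself induced by hypoxia, and Txnip, a glucose-responsive inhibitor of glucose uptake, passed with differences of 1.02 and 1.77. Hif1a differed by -1.06 and did not pass (limma adjusted p = 0.0574).

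In the knockdown comparison these lists had median differences of -0.16 for other glycolysis and glucose entry, -0.06 for gluconeogenesis, -0.11 for transport and pyruvate dehydrogenase, 0.07 for the pentose phosphate pathway and -0.20 for the tricarboxylic acid cycle. The median over all genes was -0.06. Of the 19 tricarboxylic acid cycle genes 17 were below 0 (61% of all genes), with Me3, mitochondrial malic enzyme, at -0.55. The largest of the regulators was Foxk2, a forkhead factor that promotes glycolytic gene expression, which was low in all knockdown arrays. Its signals were 223, 160 and 275 in the knockdown and 547, 648 and 539 in the control, a difference of -1.41. The value was known when the lists were used, so it is given as a description.

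**Figure D5:**
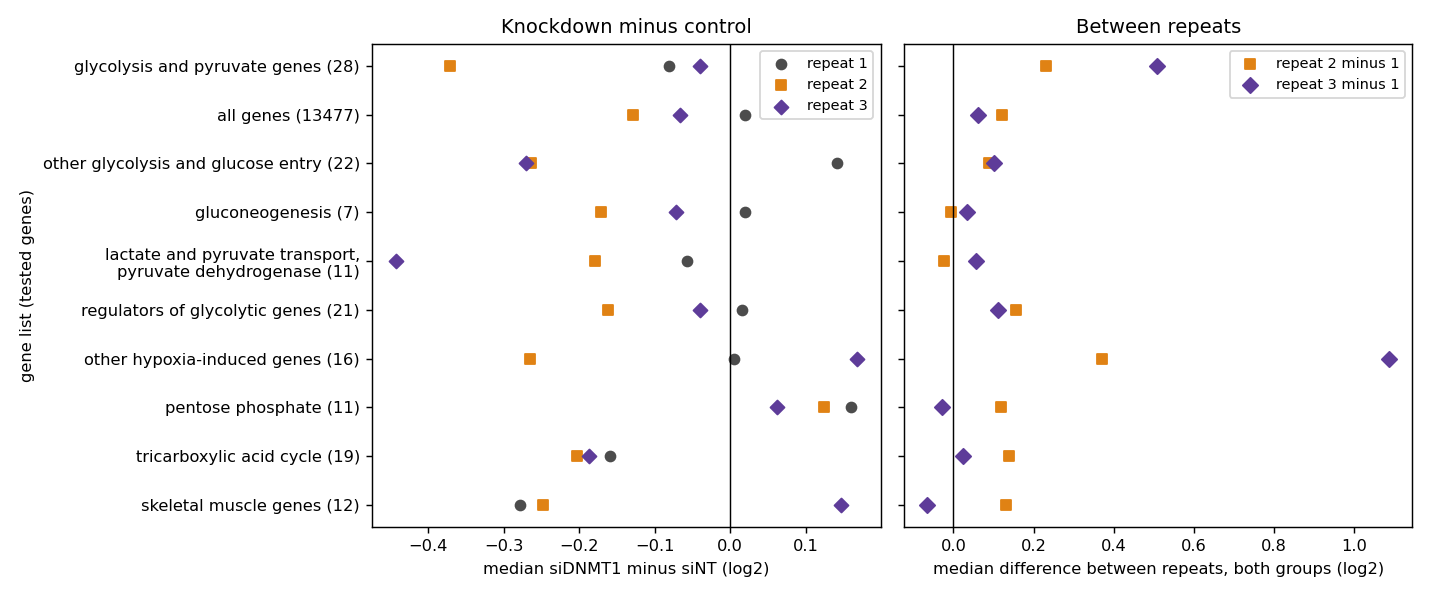
Median knockdown difference in each repeat (left) and median difference between repeats over both groups (right) for the 28 genes, all genes and 8 further lists, in log2 units, with the number of tested genes in brackets. The glycolysis and pyruvate genes and the other hypoxia-induced genes stand farthest right for repeat 3 minus 1, at 0.51 and 1.09.

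The starts of the genes that differed between repeats are shown for the core element ACGTG, the sequence that hypoxia-inducible factors and several other basic helix-loop-helix factors bind. Windows of 250 bases before the start were taken from RefSeq (GRCm38.p6) for 33 of the 34 genes, Slc2a3 being the missing one, and searched on both strands. ACGTG was present in 8 of the 12 genes that passed (66.7%), in 7 of the 15 other tested genes with a window (46.7%) and in 18.5% of all 27025 genes. The other form of the element, GCGTG, was present in 6 of the 12 (50.0%), in 12 of the 15 (80.0%) and in 30.9% of all genes. A gene with several starts counted if any of its windows held the motif. CG content ran alongside, with a median of 20 CG per window in the 12 genes, 14 in the 15 and 6 in all genes, and its part in these shares was not tested. A match is a description of the letters only.

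The windows of 4 of these genes follow, 5′ to 3′ on the gene's strand, with ACGTG on either strand in capitals, where it reads CACGT on the other strand and CACGTG holds the motif on both. They are shown as those of the 12 genes that carry the motif more than once, which 4 of the 12 (33.3%), 5 of the 15 other tested genes (33.3%) and 7.76% of all genes do: Slc16a3 (chr11:120948817-120949066, plus strand) has 2 matches, Hk2 (chr6:82774455-82774704, minus strand) has 2, Pgk1 (chrX:106186850-106187099, plus strand) has 2, and the upstream of 2 Ldha windows (chr7:46845554-46845803, plus strand) has 5. The windows of Pdk1 and Pfkl, whose brightest probe sets differed between repeats nearly as much as that of Slc16a3, hold 0 matches of ACGTG and 1 of GCGTG each.
Slc16a3: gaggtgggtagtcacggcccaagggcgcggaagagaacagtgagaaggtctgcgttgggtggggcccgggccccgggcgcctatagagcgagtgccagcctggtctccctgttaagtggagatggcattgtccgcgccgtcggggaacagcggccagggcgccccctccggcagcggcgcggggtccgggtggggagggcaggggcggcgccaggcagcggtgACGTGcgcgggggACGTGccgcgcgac
Hk2: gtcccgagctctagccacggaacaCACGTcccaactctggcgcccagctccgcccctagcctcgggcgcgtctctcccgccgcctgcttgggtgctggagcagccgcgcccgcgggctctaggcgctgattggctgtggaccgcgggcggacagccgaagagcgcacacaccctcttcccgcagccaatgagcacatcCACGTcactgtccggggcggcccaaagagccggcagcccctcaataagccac
Ldha: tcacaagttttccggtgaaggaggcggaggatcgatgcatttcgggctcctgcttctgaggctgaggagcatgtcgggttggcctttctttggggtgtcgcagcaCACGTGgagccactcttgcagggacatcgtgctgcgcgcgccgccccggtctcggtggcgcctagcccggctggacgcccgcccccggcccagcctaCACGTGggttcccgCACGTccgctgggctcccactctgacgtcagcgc
Pgk1: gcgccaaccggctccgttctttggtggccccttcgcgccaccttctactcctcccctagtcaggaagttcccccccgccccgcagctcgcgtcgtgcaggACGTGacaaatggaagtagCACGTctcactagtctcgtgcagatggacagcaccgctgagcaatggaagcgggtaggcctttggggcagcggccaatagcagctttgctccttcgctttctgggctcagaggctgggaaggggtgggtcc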

How the data were processed

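Transcripts were measured on 6 Affymetrix arrays, 3 siDNMT1 and 3 siNT, grouped from the labels. The authors deposited 1 linear intensity per probe set and array, made with GCOS per the submitters' processing notes; of its version and settings, and of detection calls, nothing is known from the labels. The table holds 45101 probe sets, and 34945 had 1 symbol in the platform annotation, 932 several and 9160 none, beside 64 controls. Symbols were checked against a mouse gene table (GRCm38.p6), which changed 0.

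Each array was scaled to 1 median log2 value, and log2(scaled intensity + 5.29), with the 20th percentile of the deposited intensities as pseudocount, was taken; this understates changes of dim probe sets. Testing covered 27022 probe sets whose mean scaled signal was at least 16.8 (40th percentile), with limma 3.58.1 in R 4.3.3 (eBayes with a trend, two-sided, Benjamini-Hochberg, threshold 0.05). All 28 tested genes were above that signal in every array on their brightest probe set, which stood for the gene.

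The fit had no block; a fit blocked on the repeat number was the stated alternative. Arrays sharing a number deviated together from their group means (r = 0.173, 0.231 and 0.257 across probe sets, each over 0.1). On these values the repeat numbers were taken to pair the arrays. Other pairs gave -0.179 to -0.0283. Subtracting the group means pushes other pairs below 0 when same-numbered pairs are above it, so their values add no separate support. The repeats were compared by an F test in the blocked fit. The genes and lists were chosen with earlier results of these data known. The naming rule gave values in every array for the enolases and the 10 further genes with the largest differences. From each list it gave up to 3 genes by size and any past the threshold. Array values of Hk2, Bnip3, Foxk2 and Gapdh, the Mylpf values, and the genes that passed between repeats were added after their values were seen. The fits were tested on simulated data. The number of arrays limits the precision. Alternatives changed the scaling, pseudocount, filter, variance trend, probe set choice and arrays.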

Additional observations from a re-analysis of the deposited data

How the results depend on the processing

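The direction of the median knockdown difference (-0.14) held under every scaling, pseudocount and filter tried and with the replicate block (-0.22 to -0.06 without 1 repeat); without single arrays it ranged from -0.33 to 0.012. The Eno3 minus Eno2 difference (-1.07) ranged from -1.32 to -0.81 without single arrays. Over all probe sets the knockdown fit called 0; it called 2 with no scaling, 1 each with trimmed mean scaling, quantile scaling, the 60th percentile filter and without x and s probe sets, and 0 to 4 without single arrays. The replicate block called 23, and 41, 41 and 266 without repeats 1, 2 and 3, 15 with no scaling, 3 with trimmed mean scaling, 4 with quantile scaling, 1 with no filter and 0 with no trend. Of the 55 probe sets of the genes described, the block called 1, and 1, 1 and 5 without repeats 1, 2 and 3. With other scalings the block called that of Eno3 alone, and with no filter or no trend 0 (limma adjusted p of Eno3 0.151 and 0.795). The unblocked settings called 0. The block combined with another scaling, filter or trend was chosen after seeing the data. Genes differing between repeats numbered 12. They numbered 25 with no scaling, when 64.7% of all genes did, 9 with quantile scaling and 0 with no filter or no trend. They numbered 2 without repeat 3, 11 and 15 without repeats 1 and 2, and 9 to 16 without single arrays. The cause of these shifts was not tested, except that no scaling keeps the brightness of repeat 2. The median difference between repeats 3 and 1 (0.51) was 0.72 with no scaling and 0.49 to 0.67 without single arrays. Of 559 alternative values of single genes, 516 moved by less than the spread between repeats and 43 by more, and 20 genes changed sign under at least 1 alternative. The 3 arrays per group and compressed bright signals limit what could be seen.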
